A study of Homo sapiens with 2 samples.

Results

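The miRNAs described here are 6 entries known for enrichment in neural tissue, measured in an oral squamous cell carcinoma line. They are miR-138-5p, miR-128-3p, miR-9-5p, miR-9-3p, miR-129-5p and miR-7-5p. With miR-3529-3p, the opposite-strand name of miR-7-5p, they make 7 entries. They were picked by name from a small RNA table of 1213 entries, 1178 of which carry miRNA names. miR-3529-3p lies opposite miR-7-5p and was taken as the same measurement, which leaves 6 measurements. UM-SCC6-M is a culture raised from UM-SCC6 cells harvested past the matrix channel of a microfluidic chip over 3 successive rounds, and the labels call it highly invasive with some mesenchymal traits. It is set against the parental UM-SCC6 line. No other treatment or allele is given for either culture. With 1 library from each culture, differences could not be set against a spread between replicates, and no test was made.

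A miRNA is cut from a hairpin precursor, and its seed, bases 2 to 8, pairs with target messenger RNAs and lowers their output. In the nervous system miR-9 acts in progenitors and in neurons, where its arms repress the neuronal gene silencer REST and its partner CoREST. miR-128 dampens neuronal excitability in mice, miR-138 limits dendritic spine growth in rat neurons, and miR-129-5p represses a potassium channel there. miR-7 is abundant in neuroendocrine cells and represses EGFR. Some of these miRNAs have also been studied in carcinoma, including miR-138-5p, reported to repress RHOC and ROCK2, and miR-9-5p, reported to repress the adhesion gene CDH1.

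The mature sequences of the members are printed first because they decide which loci the reads can be assigned to. They come from RefSeq (GRCh38.p14), read 5′ to 3′, with the seed in capitals:
miR-138-5p: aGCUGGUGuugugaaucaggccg
miR-128-3p: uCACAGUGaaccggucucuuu
miR-9-5p: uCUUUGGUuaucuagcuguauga
miR-9-3p: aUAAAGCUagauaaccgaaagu
miR-129-5p: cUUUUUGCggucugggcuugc
miR-7-5p: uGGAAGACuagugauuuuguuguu
miR-3529-3p: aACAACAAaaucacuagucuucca

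The 7 seeds all differ, and no pair of members has more than 4 of 7 seed bases equal. Of 2370 mature human miRNA names in RefSeq, miR-216a-3p and miR-3681-3p share the seed of miR-128-3p, and none shares the seed of another member. Neither of these 2 names was among the entries analysed here. The mature lengths were 21 to 24 bases, so 1 read stands for a whole product and no correction for length applies. Ligation-based libraries capture some miRNAs better than others, so levels compared between miRNAs are approximate.

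miR-3529-3p equals the reverse complement of miR-7-5p over 24 of 24 bases. Its hairpin lies on the minus strand of chromosome 15 (88611847 to 88611924, GRCh38), inside the span of MIR7-2 on the plus strand (88611825 to 88611934). The MIR7-2 hairpin is shown with the miR-7-5p product, the sense partner of miR-3529-3p, in capitals:
MIR7-2: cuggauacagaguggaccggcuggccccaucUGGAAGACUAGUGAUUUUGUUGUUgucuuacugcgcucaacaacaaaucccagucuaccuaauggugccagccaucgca

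Most members come from several loci with the same mature sequence, so their reads do not tell which locus was active. miR-138-5p is encoded by MIR138-1 on chromosome 3 (44114212 to 44114310) and MIR138-2 on chromosome 16 (56858518 to 56858601), both on the plus strand and outside longer annotated genes in GENCODE release 29. miR-128-3p is encoded in introns of R3HDM1 on chromosome 2 (135665397 to 135665478) and ARPP21 on chromosome 3 (35744476 to 35744559). The 3 hairpins of miR-9 lie within C1orf61 on chromosome 1, the long non-coding RNA gene LINC00461 on chromosome 5, and MIR9-3HG on chromosome 15. miR-129-5p was found in MIR129-1 on chromosome 7 and MIR129-2 on chromosome 11. miR-7-5p comes from MIR7-1 within HNRNPK on chromosome 9, from MIR7-2, and from MIR7-3 within MIR7-3HG on chromosome 19.

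The UM-SCC6-M library held 7699490 recovered reads and the parental library 8182958. Levels are given in normalized reads, on the authors' scale, where 1 read counted for 0.119 in UM-SCC6-M and for 0.133 in the parental line. A level below 1 is listed as 0. A log2 ratio sets UM-SCC6-M over the parental line after 0.5 reads were added on either side. Intervals are exact 95% intervals from the reads (Clopper-Pearson for ratios and shares, Poisson for levels) and cover counting error only. They take reads as independent. Reads copied by PCR are not independent molecules, so the intervals can be too narrow even for counting error. In bulk libraries, fewer cells with a miRNA and less of it per cell cannot be told apart.

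The 5 members with listed values ran from 14.4 to 9222 normalized reads in UM-SCC6-M cells and from 21.9 to 12353 in parental cells. miR-7-5p and miR-128-3p were well read in both cultures, and the other 3 stayed under 50 normalized reads in both. Among these 5, miR-138-5p was furthest from equal, 2.79-fold lower in UM-SCC6-M, while the other 4 were within 1.34-fold of equality. miR-9-3p was listed at 0 in both libraries. These 5 together, with miR-7 counted once, held 1.16% of the reads in UM-SCC6-M and 1.30% in the parental library, and miR-7-5p alone gave 86.7% and 87.6% of those reads.

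**Figure D1:**
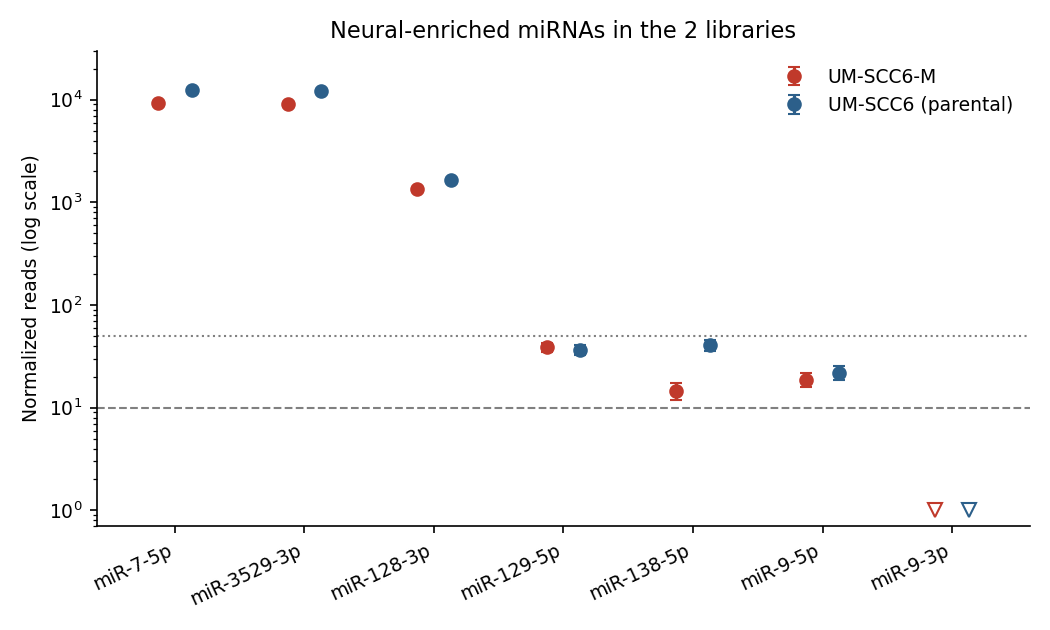
Normalized reads (log axis) of each member in the UM-SCC6-M library (red) and the parental UM-SCC6 library (blue), with exact 95% counting intervals. Open triangles at 1 mark miR-9-3p, listed at 0 in both, the lines mark 10 and 50 normalized reads, and miR-138-5p shows the widest gap, at 14.4 against 40.4.

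miR-138-5p had 14.4 normalized reads (interval 11.99 to 17.3) in UM-SCC6-M cells and 40.4 (35.98 to 45.2) in parental cells. These levels rest on 121 and 304 reads. The intervals of the libraries did not overlap. The log2 ratio was -1.48 (-1.80 to -1.17), or 2.79-fold lower (2.26 to 3.48). Under the other scalings it ranged from -1.50 to -1.24. In the authors' deposited table the q-value was 0.0168, which compares the 2 libraries and not the cultures, and the entry was not marked as a selected miRNA.

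A rule of size stood in for a test, namely a ratio of 2-fold or more where the higher level was 50 normalized reads or above. Of the 2 members that reached this floor, miR-7-5p and miR-128-3p, 0 were past 2-fold in either direction. Among all named miRNAs at the floor, 23 of 179 (12.8%) were at least 2-fold lower and 13 of 179 (7.26%) at least 2-fold higher. Totals over all named miRNAs count every name. Opposite-strand names of 1 measurement, such as miR-374b-5p and miR-374c-3p among the higher, thus count as 2. At a floor of 10 normalized reads, 1 of 5 members was lower, miR-138-5p, and 0 of 5 were higher. Among all miRNAs at that floor, 45 of 288 (15.6%) were lower and 21 of 288 (7.29%) higher. A count of 1 in 5 is close to that share. miR-138-5p stood at position 29 of 288, counted from the lowest ratio.

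**Figure D2:**
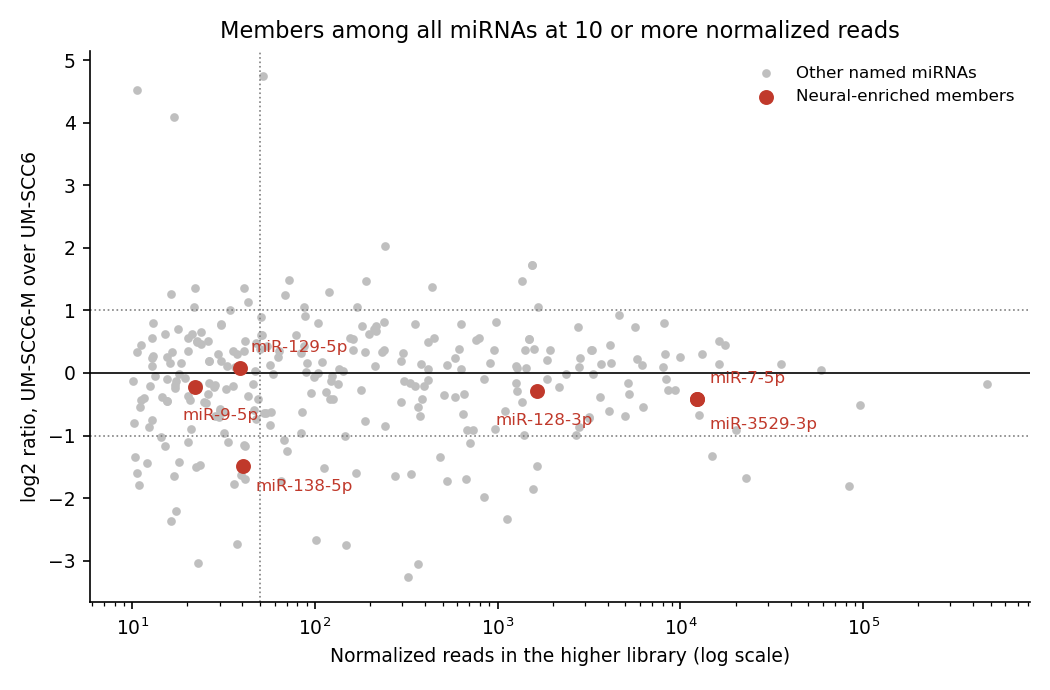
Each point is a named miRNA whose higher level reached 10 normalized reads (x axis, the higher level on a log scale), against its log2 ratio of UM-SCC6-M over UM-SCC6 (y axis), members in red. Dotted lines mark 50 normalized reads and 2-fold in each direction, and miR-138-5p is the red point below -1, left of the 50 read line.

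The hairpins that give miR-138-5p can be told apart by their 3p arms, which differ in 4 of 22 bases (differing bases in capitals):
miR-138-1-3p: gcuaCuucacAacaccagggCC
miR-138-2-3p: gcuaUuucacGacaccagggUU

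Of these, miR-138-1-3p had 15 reads in UM-SCC6-M and 16 in parental cells, a log2 ratio of -0.24 (-1.37 to 0.86). miR-138-2-3p was not analysed here. For each read of miR-138-1-3p there were 8.07 reads of miR-138-5p in UM-SCC6-M cells and 19 in parental cells. The balance of the 3p product against miR-138-5p was higher in UM-SCC6-M by 1.24 on the log2 scale, with an interval of 0.07 to 2.39 that rests on these few 3p reads. Such a balance is taken within a library and does not depend on the scaling. The interval of miR-138-1-3p ends at -1.37, close to the -1.48 of miR-138-5p, and a 2-fold difference lies within it.

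miR-7-5p had 9222 normalized reads in UM-SCC6-M cells and 12353 in parental cells, on 77230 and 92962 reads. It stood at position 12 of the abundance order in both libraries, with 1.003% (0.996 to 1.010) of the UM-SCC6-M reads and 1.14% (1.13 to 1.14) of the parental reads. The log2 ratio was -0.42 (-0.44 to -0.41), or 1.34-fold lower. The interval is narrow because the reads are many, and the choice of scaling mattered more than counting error. The ratio lay between -0.44 and -0.18 under the scalings tried. The authors' deposited table gives it a q-value of 6.62e-19 without marking it as selected.

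The opposite-strand name, miR-3529-3p, had 9133 normalized reads in UM-SCC6-M cells and 12245 in parental cells, and a log2 ratio of -0.42. Its 76484 and 92151 reads were 99.0% and 99.1% of those of miR-7-5p. Among pairs of names with at least 20 bases of reverse complement and at least 100 reads for either name, 5 of 7 had counts within 5% of each other in both libraries. The others in that group of 5 were miR-24-3p with miR-3074-5p, both arms of miR-423 with those of miR-3184, and miR-374b-5p with miR-374c-3p. The miR-7 value is thus 1 measurement listed under 2 names, and both names enter the library totals.

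miR-128-3p had 1348 normalized reads (1323 to 1373) in UM-SCC6-M cells and 1649 (1620 to 1678) in parental cells, on 11287 and 12409 reads. The log2 ratio was -0.29 (-0.33 to -0.25), or 1.22-fold lower, and it was -0.049 with the libraries scaled to their total reads. It stood at position 59 in UM-SCC6-M and 48 in parental cells. It had 34.8 and 40.8 times the level of the next member in each library, miR-129-5p and miR-138-5p. The q-value in the authors' deposited table was 0.991.

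The 5p product of the R3HDM1 intron is printed because it reports on that locus alone, with its seed in capitals:
miR-128-1-5p: cGGGGCCGuagcacugucugaga

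miR-128-1-5p had 20.2 normalized reads in UM-SCC6-M and 13.7 in parental cells, on 169 and 103 reads. It lay on the other side of equality from miR-128-3p, with a log2 ratio of 0.56 (0.20 to 0.93). There were 66.8 reads of miR-128-3p for each read of miR-128-1-5p in UM-SCC6-M cells and 120.5 in parental cells. That shift in balance was 0.85 on the log2 scale (0.49 to 1.22). The counterpart from the ARPP21 intron, miR-128-2-5p, was not analysed here, and miR-128-3p reads can come from both introns.

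miR-9-5p had 18.7 normalized reads (15.9 to 21.9) in UM-SCC6-M cells and 21.9 (18.7 to 25.5) in parental cells, on 157 and 165 reads. The intervals overlapped. The log2 ratio was -0.23 (-0.55 to 0.10), and it turned to 0.02 with scaling to total reads, so no direction can be given. At this depth a difference of up to 1.46-fold toward lower values lies within counting error.

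miR-9-3p, the partner arm, was listed at 0 in both libraries. The miR-9 arms hold a run of 12 bases that are reverse complements of each other, shown here in the MIR9-2 hairpin with both products in capitals:
MIR9-2: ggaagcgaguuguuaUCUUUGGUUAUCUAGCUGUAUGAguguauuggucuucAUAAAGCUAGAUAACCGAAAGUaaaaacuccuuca

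In the authors' deposited table miR-9-3p has a log2 fold change of -1.74, although both levels are listed at 0. Of all pairs of whole reads under the listing limit, 1 read in UM-SCC6-M with 3 in parental cells, or 2 with 6, give that value. Either way the 5p arm outnumbered the 3p arm in both libraries. With 1 and 3 reads there were 157 reads of miR-9-5p per miR-9-3p read in UM-SCC6-M and 55 in parental cells. With 2 and 6 reads these ratios were 78.5 and 27.5. The difference in arm balance was 1.15 (-2.15 to 7.24) or 1.31 (-1.002 to 4.87) on the log2 scale, and both intervals include 0.

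miR-129-5p had 38.7 normalized reads (34.6 to 43.1) in UM-SCC6-M cells and 36.7 (32.5 to 41.3) in parental cells, on 324 and 276 reads. It was the sole listed member with a ratio above 0, at 0.08 (-0.16 to 0.31), an interval that includes 0. The partner product of MIR129-2, miR-129-2-3p, had 19 reads in UM-SCC6-M and 13 in parental cells, with a log2 ratio of 0.38 (-0.70 to 1.53). Neither product showed a difference beyond counting error under the authors' scaling. With scaling to total reads miR-129-5p was at 0.32, past the upper end of its interval, so this reading depends on the scaling.

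The order of levels differed between the cultures below miR-7-5p and miR-128-3p. In UM-SCC6-M cells miR-129-5p was followed by miR-9-5p and then miR-138-5p, and the intervals of the last 2 overlapped. In parental cells miR-138-5p was followed by miR-129-5p, with overlapping intervals, and then miR-9-5p. The median log2 ratio of the 5 listed members was -0.29, against -0.08 over all 288 miRNAs at 10 or more normalized reads. Below 0 were 4 of 5 members and 151 of 288 miRNAs (52.4%). The 4 include miR-9-5p, whose ratio turned to 0.02 with scaling to total reads, so both counts depend on the scaling. The member median is the value of miR-128-3p and moved to -0.049 with scaling to total reads. Rescaling moves every ratio by the same amount, here 0.24, those of the 288 miRNAs included. Over the same miRNAs, the gap between the 2 medians is therefore unchanged.

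The other products of these hairpins were compared with the members as a group. miR-7-1-3p, from the HNRNPK locus, had 108 reads in UM-SCC6-M and 100 in parental cells, so 715.1 and 929.6 reads of miR-7-5p were counted per read of it. Its balance against miR-7-5p was higher in UM-SCC6-M by 0.38 on the log2 scale (-0.03 to 0.79). For miR-129-2-3p against miR-129-5p the difference was 0.30 (-0.81 to 1.48). Of the 5 families, the less abundant product was thus relatively higher in UM-SCC6-M in those of miR-138, miR-128, miR-129 and miR-7, with intervals above 0 for miR-138 and miR-128. In that of miR-9 it was relatively lower, at -1.15 or -1.31 for miR-9-3p over miR-9-5p, with intervals that include 0. Among 70 hairpins with 10 or more normalized reads for each arm, the less abundant arm was relatively higher in 35 (50%), with a median difference of -0.003 and quartiles of -0.69 and 0.48. The 70 include both miR-423 and miR-3184, opposite-strand names with near equal counts, at 0.19 and 0.18. The 70 hold only pairs whose names differ in nothing but the arm, which leaves out the pairs of miR-138, miR-128, miR-129 and miR-7. miR-128-1-5p and miR-7-1-3p each report on a single locus, while miR-128-3p and miR-7-5p can come from several. miR-138-1-3p, miR-129-2-3p and miR-9-3p also fall below that floor. None of the 5 families therefore has a like background here.

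**Figure D3:**
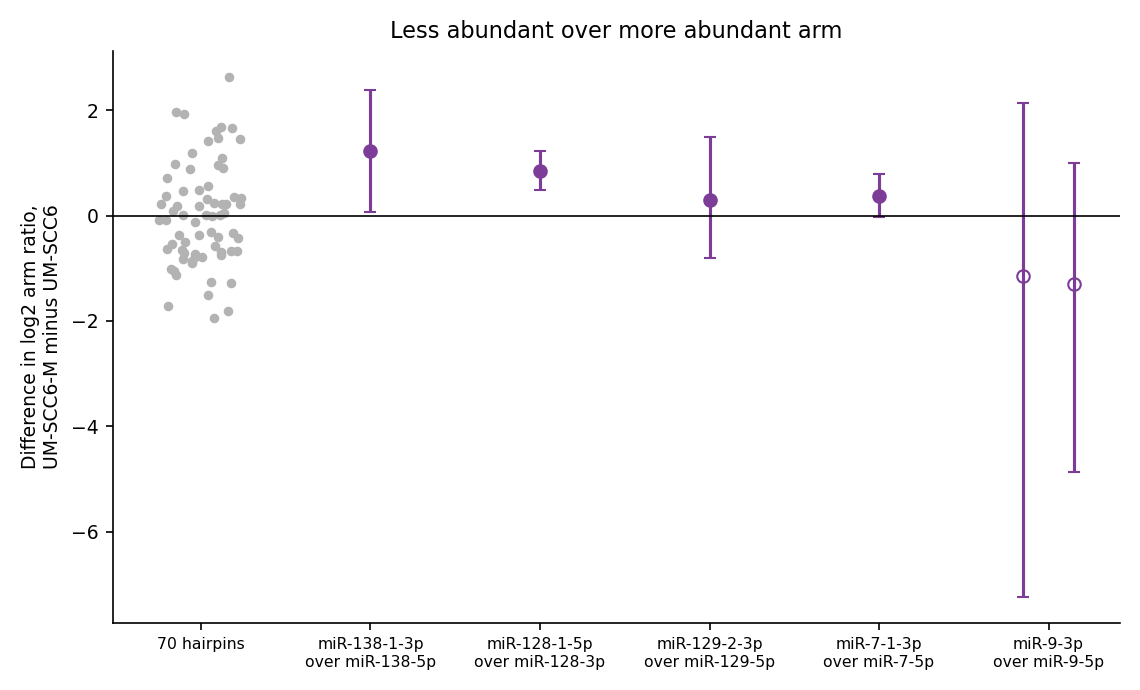
Difference between UM-SCC6-M and UM-SCC6 in the log2 ratio of the less abundant to the more abundant arm, for 70 hairpins (grey, spread sideways for legibility) and for the 5 families of the members (purple, with exact 95% counting intervals). Filled values lie at 1.24, 0.85, 0.30 and 0.38, and the open pair shows miR-9 at -1.15 or -1.31, for the 2 possible read pairs of miR-9-3p. None of the 5 families is among the 70 hairpins, which are not a like background for them.

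The miRNAs nearest to each member in the plane of log2 normalized reads of the 2 libraries were listed as a description over 2 samples. Nearest to miR-138-5p were miR-345-5p (12.8 against 41.6 normalized reads in UM-SCC6-M and parental cells) and miR-330-5p (12.7 against 39.2). Nearest to miR-7-5p were miR-30d-5p (7845 against 12560) and miR-103a-3p (7715 against 9281). miR-128-3p lay nearest to miR-106b-3p and miR-320a, miR-9-5p to miR-130b-3p and miR-486-5p, and miR-129-5p to miR-148a-5p and miR-331-3p.

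A further list of 34 names with neural enrichment or function set the members in context. Of these, 24 had an entry, 9 were listed at 0 in both libraries and 15 had known reads. At 10 or more normalized reads there were 6, with a median log2 ratio of 0.08, against -0.08 over all 288 miRNAs at that floor. Of the 6, 1 was at least 2-fold lower in UM-SCC6-M and 0 were higher, beside 15.6% and 7.29% of the 288. A count of 1 in 6 is close to that share. The lower one was miR-218-5p, which is named in the title of the series, at 16.0 against 101.7 normalized reads. miR-137, which acts in neural stem cells and at synapses, had 187.0 normalized reads in UM-SCC6-M and 148.4 in parental cells (log2 ratio 0.33, interval 0.22 to 0.45). miR-330-3p had 84.2 and 67.2 (0.32), and miR-149-5p had 117.0 and 132.9 (-0.18, but 0.06 with scaling to total reads).

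miR-132 and miR-212 share a cluster that neuronal activity induces through CREB. miR-132-3p had 78.3 normalized reads in UM-SCC6-M and 51.4 in parental cells, a log2 ratio of 0.61 (0.42 to 0.79). miR-132-5p had 40.8 and 46.0, a ratio of -0.17 that turned to 0.07 with scaling to total reads. Below the floor, miR-212-5p had 58 reads in UM-SCC6-M and 28 in parental cells (0.88, interval 0.22 to 1.60), and miR-212-3p had 11 and 6.

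The other neural names with known reads stayed below 10 normalized reads in both libraries. miR-592 had 23 reads in UM-SCC6-M and 43 in parental cells, miR-153-3p had 2 and 9, and miR-326 had 12 and 19. miR-219a-1-3p had 24 and 33, miR-219a-2-3p 15 and 3, miR-323a-3p 13 and 4, and miR-338-3p 9 and 4. These values went both ways, and under the authors' scaling the intervals of miR-592, miR-153-3p and miR-219a-2-3p lay on one side of 0. That of miR-153-3p ended at -0.05, closer to 0 than the 0.24 by which scaling to total reads moves every ratio. miR-219a-2-3p and miR-338-3p had the same counts as their opposite-strand names, miR-219b-5p and miR-3065-5p, so the strand of these reads is not settled.

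**Figure D4:**
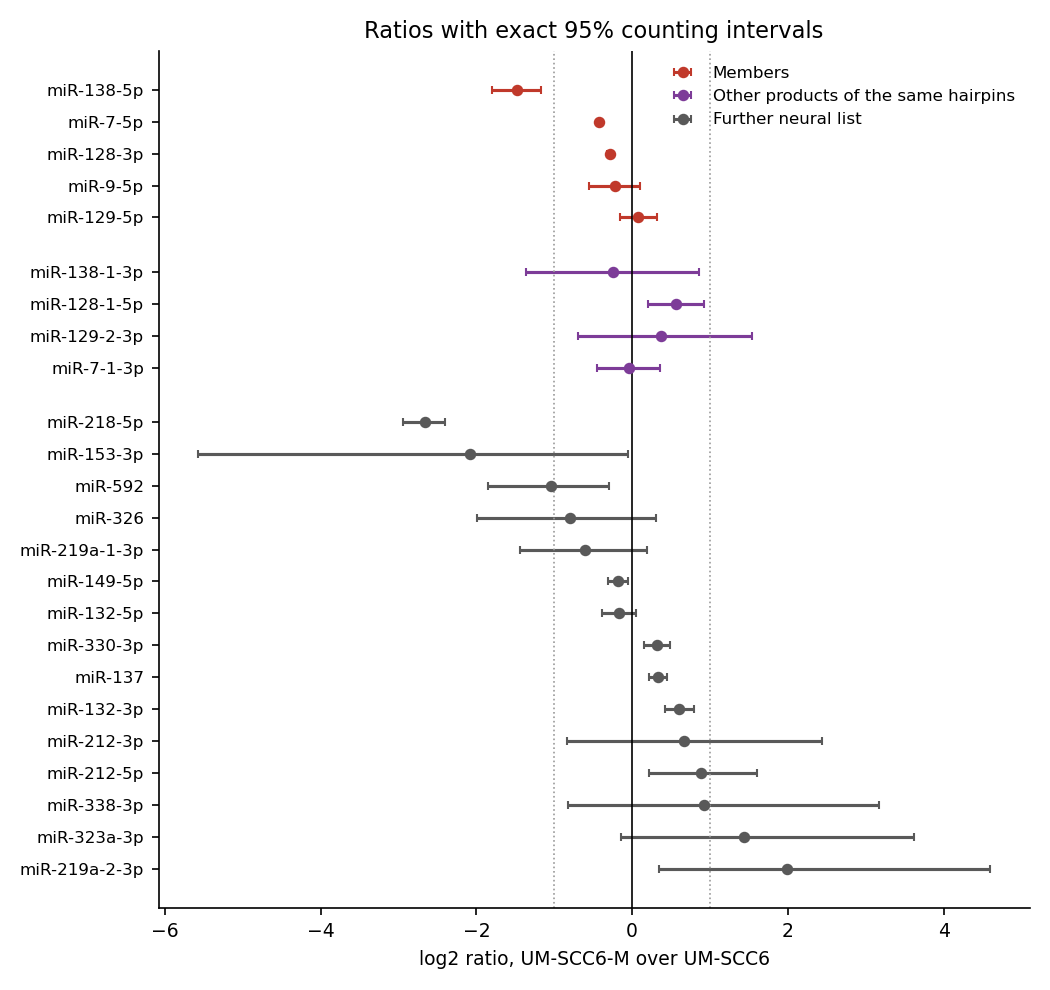
Log2 ratios of UM-SCC6-M over UM-SCC6 with exact 95% counting intervals for the 5 members with listed values (red), the other products of their hairpins (purple) and the further neural list (grey). Dotted lines mark 2-fold, and miR-138-5p at -1.48 and miR-218-5p at -2.66 are the values whose intervals lie wholly below the lower line.

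Markers fixed for cell types were read as a check on the label. Of the epithelial and squamous list, 6 of 8 had an entry, and miR-141-3p and miR-205-5p were not among the entries analysed. Values of the 6 went both ways, with a median log2 ratio of -0.08 over the 4 at 10 or more normalized reads. miR-200b-3p had 17481 normalized reads in UM-SCC6-M and 12823 in parental cells, and miR-200a-3p had 1344 and 2674. miR-429 had 793.1 and 844.7, and miR-31-5p had 93.9 and 98.5. Below 10 normalized reads in both libraries, miR-200c-3p had 15 reads in UM-SCC6-M and 20 in parental cells, and miR-203a-3p had 23 and 7. Of the neuron list, miR-9-3p and miR-219a-5p were listed at 0 in both libraries. miR-124-3p, the most neuron-restricted name of that list, was not analysed here. The neuron list holds 5 of the members and others of the further list, so it gives no check apart from them. It summed to 1685 normalized reads in UM-SCC6-M and 1949 in parental cells, most of it miR-128-3p. The stromal list summed to 25.9 normalized reads in UM-SCC6-M and 22.6 in parental cells, but its members went both ways. miR-199a-3p had 183 reads in UM-SCC6-M and 79 in parental cells, miR-143-3p had 34 and 78, and miR-199a-5p had 1 and 13, while miR-145-5p and miR-214-3p were listed at 0. The endothelial marker miR-126-3p had 519.9 normalized reads in UM-SCC6-M and 968.3 in parental cells, a log2 ratio of -0.90. Its partner arm, miR-126-5p, went the other way, at 30.6 and 17.8, a log2 ratio of 0.78 (0.47 to 1.09). Of the blood list miR-486-5p had 17.9 and 24.6, and its other 2 entries were at 0. The part of other cell types in these values was not tested.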

How the data were processed

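Small RNA libraries were prepared by adapter ligation from 3 µg of total RNA, 1 per culture, per the labels' protocols. The submitters' processing notes name Bowtie without a version, and the genome build, miRNA database release and counting are not given in the sources used here. What the authors deposited is 1 table of scaled read signal per miRNA, whose scaling method is not stated. Each deposited signal value, unless listed at 0, was a whole number of equal steps within 7.16e-05 of a step, and the number of steps was taken as the reads. Where 1 library was listed at 0, its reads came from the deposited log2 fold change and were whole within 0.000229 reads. The deposited p-values and q-values are the authors' own and called nothing here.

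Members and lists were chosen with earlier results of these data known. The miRNAs named were every member, other products of its hairpins, the further neural list where reads were known, the 2 nearest miRNAs of each member, and the cell type markers. Outside this rule, names that share a seed with a member came from the sequences, and the opposite-strand pairs were named after their values were seen. Intervals of ratios of ratios are exact conditional intervals of a 2 by 2 table of reads. Hairpin positions come from GENCODE release 29 (GRCh38) and sequences from RefSeq (GRCh38.p14), matched by name, and neither from the authors' file. All members had a RefSeq mature sequence. The interval code was tested on simulated data. Alternatives were other scalings, floors, thresholds and reads added. Computation used Python 3.11.15, numpy 2.4.6, pandas 2.3.3, scipy 1.17.1 and matplotlib 3.10.9.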

Additional observations from a re-analysis of the deposited data

How the results depend on the processing

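Every log2 ratio moves by the same amount when the libraries are rescaled, by 0.24 with total reads, 0.10 with totals that leave out the 10 most abundant miRNAs, 0.04 with the median of ratios and -0.02 with the trimmed mean of M-values. With total reads miR-7-5p was at -0.18, miR-128-3p and the member median at -0.049, and miR-129-5p at 0.32. With the median of ratios miR-7-5p was at -0.38, and miR-128-3p and the median at -0.25. Without the 10 most abundant they were at -0.32, -0.19 and -0.19. With the trimmed mean miR-7-5p was at -0.44. Among the 5 members with listed values, the count at least 2-fold lower was 0 at the floor of 50 normalized reads. It was 1 with a floor of 10 or with none, in both cases miR-138-5p. miR-9-3p, listed at 0 in both libraries, was left out of these counts. Its deposited log2 fold change was -1.74, on 1 and 3 or 2 and 6 reads. The count of higher members was 0 under every alternative tried. The member median was -0.36 at a floor of 50 and also -0.36 with miR-7-5p and miR-3529-3p as 2 entries. With 5 reads added, the arm balance of miR-9 was 0.35 or 0.58, within its intervals. No paired analysis was possible because each culture has 1 library, and for the same reason no library could be left out. Members under 50 normalized reads are limited by depth, with counting standard errors of 0.12 to 0.16 in log2.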

Other observations

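The miRNA second nearest to miR-138-5p in level and ratio, miR-330-5p, is the partner arm of miR-330-3p in the further neural list. miR-330-5p had 106 reads in UM-SCC6-M and 295 in parental cells, a log2 ratio of -1.63 (-1.97 to -1.31), whereas miR-330-3p was at 0.32. The balance of miR-330-5p against miR-330-3p differed by -1.95 in log2 (-2.33 to -1.59) between UM-SCC6-M and parental cells, the lowest value of the 70 hairpins compared for their less abundant arm. This pair was looked at after its values were seen, and the cause was not tested.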
